A study of Bos taurus with 8 samples.

Results

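The rumen papillae of 4 Holstein cows fed a diet low in concentrate (LC, with 40% of it) were described by the signal of each gene on the 4 arrays of that diet, out of 8 arrays in the series. The 4 arrays were chosen by their diet label alone, and no test between diets was made. Each cow also received a diet high in concentrate (HC, with 70%) in the other period of a crossover, and its HC array is used here only as a second sample of the same cow. The papillae came from the ventral sac of ruminally cannulated lactating cows on day 21 of a period, 4 h after the morning feeding, and RNA of whole papillae was hybridised in a single colour to a bovine oligonucleotide array. The LC arrays of cows 1 and 2 belong to period 1 and those of cows 3 and 4 to period 2, and each period was on a slide of its own. Within LC, the pair of cows, the period and the slide therefore cannot be told apart.

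The rumen is the fermentation chamber of the ruminant forestomach, and its papillae enlarge the surface through which short-chain fatty acids, ammonia, urea and ions pass. A papilla has a stratified squamous epithelium over a core of connective tissue with vessels. The basal cells of this epithelium divide, the layers above them keratinise, and cells of the living layers oxidise butyrate and release ketone bodies. The tissue is thus part barrier, like skin, and part absorptive and metabolic organ.

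Signals are log2 intensities after quantile normalization. Of 21475 probes, 8297 could be tied to 7788 genes, and a gene with several probes was represented by the brightest. A probe was taken as detected on an array when the scanner software marked at least 1 of its spots as well above background. A dim probe could thus count as detected although its spots disagreed. Between 81.4 and 85.0% of the probes were detected per LC array, the lowest share and the lowest median intensity being those of cow 3. In the table of normalized values that was deposited beside the scanner output, the columns of cows 1 and 2 followed the scanner array of the other of these cows on LC (Pearson r of 0.9989 and 0.9988 across probes, against 0.9945 and 0.9946 with the array of the same name) and likewise on HC. Cows 1 and 2 are named here as in the scanner output, and which naming is right cannot be told from the files.

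A probe's brightness depends on its own sequence as well as on the amount of transcript, so the order of signals below is not an order of transcript amounts. Among the 481 genes with several probes, the median distance between the brightest and the dimmest probe of 1 gene was 2.69 on the log2 scale, and for 36 of them 1 probe was detected on all 4 LC arrays and another on none. The SD over the 4 cows had a median of 0.19 among genes detected in all of them, which is a different measure from that distance.

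On LC, 6734 of the 7788 genes (86.5%) were detected in all 4 cows, 442 in 1 to 3 cows and 612 (7.86%) in none. The median signal over all genes was 8.48, and the brightest 10% of the genes began at 12.65. The genes detected in no cow had a median signal of 0.53 and reached at most 2.21. For these genes the arrays give only an upper bound on the signal.

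The brightest genes were those of the ribosome. The ribosomal proteins RPS16 and RPLP2 had signals of 18.21 ± 0.05 and 18.05 ± 0.06 (mean ± SD, n = 4 cows, as throughout), and 17 of the 20 brightest genes and 37 of the 50 brightest encode cytosolic ribosomal proteins. The other 3 of the brightest 20 were S100A12, a calcium-binding alarmin of myeloid cells and inflamed epithelium, FTH1, the ferritin heavy chain that stores iron, and KRT14, the keratin of basal squamous cells. S100A12 read 18.19, 18.14, 18.17 and 18.23 in cows 1 to 4. FTH1 read 18.10, 18.07, 17.95 and 18.08. KRT14 read 18.12, 18.05, 17.69 and 18.02, cow 3 being the lowest, and its SD of 0.19 was the largest among the 20. The SD between spots of the KRT14 probe within an array was larger still, at 0.27. The gene just outside was KRT6A with a mean of 17.66, against 17.67 for RPL8 in the last place.

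**Figure D1:**
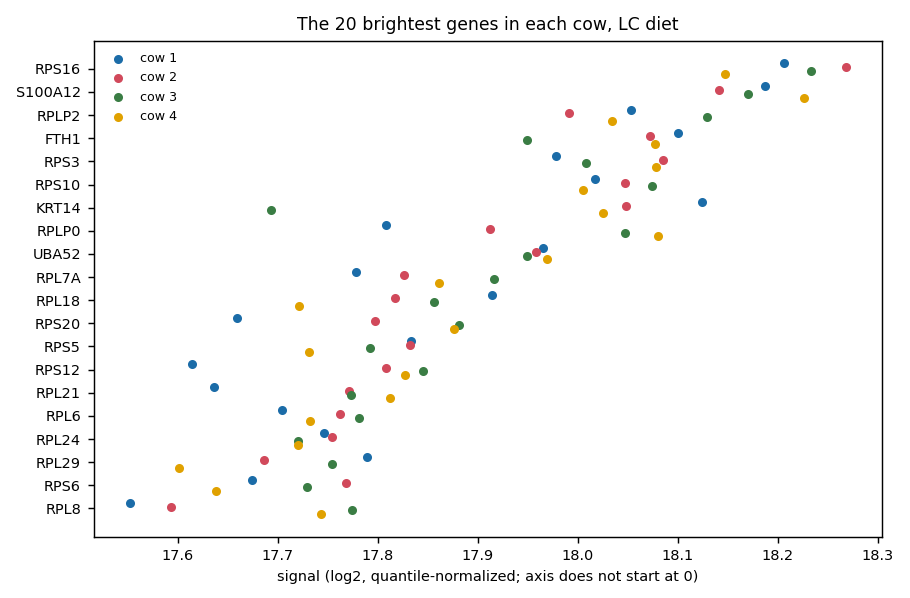
Signal (log2, horizontal axis) of the 20 brightest genes on LC, 1 point per cow, ordered by the mean. All points of a gene lie within 1 log2 unit, and KRT14 has the widest spread, with cow 3 the lowest at 17.69.

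All 55 ribosomal protein genes measured were detected in all 4 cows, and 53 of them were among the brightest 10% of all genes. RPL37A and RPS27, at 11.32 ± 0.32 and 10.33 ± 0.10, were the 2 below it. Their median SD over the cows was 0.08, against 0.20 for all genes measured. The mitochondrial respiratory chain followed, with all 20 genes detected and 17 in the brightest 10%. COX4I1 of cytochrome oxidase, at 16.29 ± 0.14, and CYC1 of complex III, at 16.20 ± 0.08, led this list, and NDUFS1 of complex I was the dimmest at 9.78 ± 0.17. Of 12 glycolytic genes, all were detected and 10 were in the brightest 10%, from ALDOA (aldolase) at 16.38 ± 0.21 and GAPDH at 15.78 ± 0.28 down to ALDOC at 10.23 ± 0.38. GAPDH, often used as a reference gene, ranged from 15.57 in cow 3 to 16.17 in cow 1, while ACTB, cytoplasmic actin, stayed between 14.56 and 14.67. The SD between spots within an array was 0.29 for the GAPDH probe, no smaller than its SD over cows, and 0.08 for ACTB.

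All 11 measured genes of the list for ketone body and short-chain fatty acid metabolism were detected in all 4 cows. Of these, 4 were in the brightest 10%. This list also held CPT2 and HADHA, genes of long-chain fatty acid oxidation. ETFB, which passes electrons from fatty acid oxidation to the respiratory chain, was at 15.46 ± 0.18, and PCCB, a subunit of the propionyl-CoA carboxylase that takes propionate towards succinyl-CoA, at 12.73 ± 0.15. ACSS2 and ACSS1, which activate acetate in the cytosol and in mitochondria, were at 12.54 ± 0.22 and 7.20 ± 0.09. The dimmest member was PPARA, a nuclear receptor activated by fatty acids, at 4.44 ± 0.21.

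Of 16 genes for the transport of acid, anions and solutes, 15 were detected in all 4 cows and 8 were in the brightest 10%. They were led by ATP1B3, a beta subunit of the sodium pump, at 15.85 ± 0.04 and AQP3, a channel for water and glycerol, at 15.70 ± 0.27. The urea transporter SLC14A1 stood at 15.57 ± 0.22, the anion exchanger SLC26A3 at 13.94 ± 0.15, and the monocarboxylate carrier SLC16A1 (MCT1) and its chaperone BSG at 13.26 ± 0.14 and 14.15 ± 0.09. The related carriers SLC16A3 (MCT4) and SLC16A7 (MCT2) had signals of 5.11 ± 0.38 and 3.41 ± 0.52. The bicarbonate cotransporter SLC4A4 was detected in no cow, whereas its relative SLC4A7 was detected in all, at 7.24 ± 0.33.

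Of 16 cell junction genes, 15 were detected in all 4 cows and 8 were in the brightest 10%. The connexins GJA1 and GJB2, which form gap junctions, stood at 16.64 ± 0.10 and 16.10 ± 0.28, and desmoplakin (DSP), which ties desmosomes to keratin, at 16.54 ± 0.14. CLDN1, a sealing claudin of tight junctions, was at 13.43 ± 0.21 and CLDN4 at 10.19 ± 0.32. DSC3, a desmosomal cadherin, was the dimmest member detected in all cows, at 9.01 ± 0.22, and DSG2, a desmoglein of simple epithelia, was detected in 2 cows.

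The labelled tissue was checked against markers of squamous epithelium. Detection in all 4 cows held for 86.5% of all genes, so the counts below do not by themselves mark the tissue. Of 7 basal keratinocyte genes, 6 were detected in all 4 cows, with KRT14 and KRT15 (16.88 ± 0.11) the brightest and the integrin ITGB4 of hemidesmosomes the dimmest at 6.66 ± 0.35. The seventh was TP63, the transcription factor of basal squamous cells, whose probe was at 0.12 and was detected in no cow. Of 14 suprabasal and cornified genes, 13 were detected in all cows and 7 were in the brightest 10%, with KRT6A, KRT17 at 16.95 ± 0.30 and IVL, the envelope protein involucrin, at 16.40 ± 0.24. S100A7 (psoriasin) was the dimmest of the 13 at 3.84 ± 0.61, and LORICRIN, the main envelope protein of skin, was detected in 1 cow. Among 12 squamous transcription factors, 11 were detected in all cows, led by KLF4 at 13.39 ± 0.20 and ZNF750 at 12.79 ± 0.13, which drive terminal differentiation. OVOL1, at 4.72 ± 0.28, was the dimmest of these. Several keratins and the envelope gene IVL were thus in the brightest 10%, while the TP63 probe gave no signal above background and LORICRIN gave it in 1 cow.

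**Figure D2:**
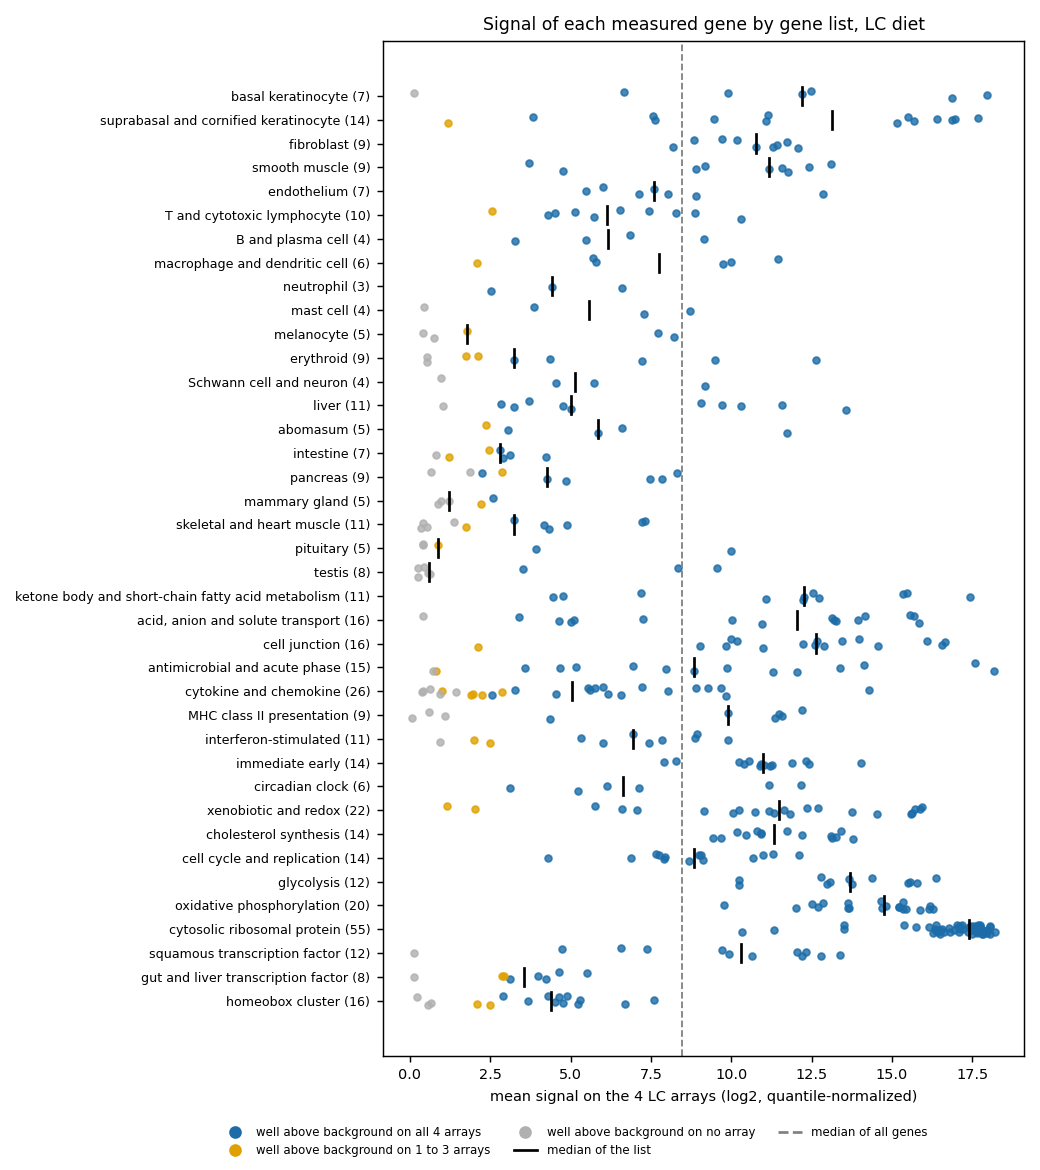
Mean signal on LC (log2, horizontal axis) of each gene measured, in 1 row per gene list with its number of genes, coloured by the number of arrays on which the gene was detected; black bars are list medians and the dashed line the median of all genes, 8.48. Ribosomal, respiratory and glycolytic genes lie far to the right, with list medians of 17.41, 14.76 and 13.70, and the genes of testis, pituitary and mammary gland have medians below 1.3.

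Genes of the papilla's core were detected as well, but 86.5% of all genes were detected in all 4 cows. The liver list, of an organ not sampled, had 10 of 11 genes so detected. Such counts alone do not show that a cell type was present, here and in the lists below. All 9 fibroblast genes were detected in all 4 cows, from the matrix proteoglycans LUM (12.07 ± 0.24) and DCN (11.72 ± 0.15) to the growth factor receptor PDGFRA at 8.19 ± 0.24. All 9 smooth muscle genes were detected too, from ACTA2, smooth muscle actin, at 13.11 ± 0.17 and MYLK, myosin light chain kinase, at 12.42 ± 0.21 to SYNPO2 at 3.71 ± 0.31, as were all 7 endothelial genes, from PLVAP at 12.85 ± 0.11 and the VEGF receptor KDR at 8.90 ± 0.22 to TIE1 at 5.48 ± 0.17. In whole tissue, more cells of a type and more RNA per cell cannot be told apart, here and for each cell type below.

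Leukocyte genes were detected as well, beside the 86.5% of all genes detected in all 4 cows. Of 10 T and cytotoxic lymphocyte genes, 9 were detected in all cows, led by the T cell receptor components CD3G (10.30 ± 0.28) and CD247 (8.87 ± 0.24), with the granzyme GZMA last at 4.30 ± 0.33. The macrophage list, with 5 of 6 detected, was led by the complement component C1QA at 11.47 ± 0.28 and the endotoxin coreceptor CD14 at 10.00 ± 0.27, with FCER1G last at 5.71 ± 0.28. All 4 B and plasma cell genes were detected, from CD79A of the B cell receptor at 9.16 ± 0.11 and the kinase BLK at 6.85 ± 0.40 to MS4A1 (CD20) at 3.27 ± 0.63. Of the 3 neutrophil genes, all were detected, with MMP9 at 6.61 ± 0.27, the fatty acid receptor FFAR2 at 4.43 ± 0.20 and myeloperoxidase (MPO) at 2.52 ± 0.23. The spots of the MS4A1 and MPO probes disagreed within an array, with SDs of 1.10 and 0.98 between spots. Of 4 mast cell genes, HDC, the enzyme that makes histamine, was at 8.70 ± 0.66, TPSB2 at 7.28 ± 0.39 and KIT at 3.85 ± 0.49, and CPA3 was not detected.

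The remaining cell types were sparsely marked. Of 5 melanocyte genes, MITF was detected at 7.72 ± 0.11 and DCT at 8.22 ± 1.20, but the 2 spots of the DCT probe disagreed within an array, with an SD of 1.45 between spots, and TYR and TYRP1 were detected in no cow. Of 9 erythroid genes, 5 were detected in all cows. HBA, alpha globin, was at 12.64 ± 0.63 while the adult beta globin HBB was at 4.35 ± 0.36, and the fetal globin HBG, at 9.48 ± 1.52, lay between them, with HBE1 last at 3.23 ± 0.11. The neuronal and Schwann cell list held SNAP25 of the synaptic release machinery at 9.19 ± 0.21 and UCHL1, a deubiquitinase of neurons, at 5.72 ± 0.39.

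Of 61 genes that mark other organs, 36 were detected in all 4 cows and 18 in none, that is 29.5% in none against 7.86% of all genes. The milk proteins CSN1S1, CSN1S2 and LALBA were detected in no cow, CSN3 in 1 cow, and PAEP in all cows at 2.58 ± 0.86. The spots of the PAEP probe disagreed within an array, with an SD of 1.83 between spots. The testis genes PRM1, PRM2, TNP1, ADAM2 and SPATA16 were detected in no cow, as were the muscle genes ACTA1, MYH1, MYH2 and TNNT2, the pituitary hormones PRL and TSHB, the pancreatic genes CPB1 and GCG, the clotting factor F9 and the gut keratin KRT20. The brightest of the 61 were the plasma protein AHSG at 13.55 ± 0.37, GAST, which encodes gastrin, at 11.73 ± 0.39, the apolipoprotein APOA2 at 11.58 ± 0.19, the carrier TTR at 10.30 ± 1.97 and POMC, a hormone precursor, at 10.00 ± 0.67. AHSG read 13.83, 13.83, 13.04 and 13.51 in cows 1 to 4, and GAST 12.06, 12.06, 11.42 and 11.37.

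The other genes of these lists were lower. The sperm tail gene ODF1 was at 9.54 ± 0.15 and ACRV1 at 3.51 ± 0.24. The digestive enzymes CPA1 and AMY2B were at 8.32 ± 0.39 and 7.84 ± 0.32, and CELA2A at 2.23 ± 0.48. PGA5, a pepsinogen of the abomasum, was at 6.61 ± 0.13 and GKN1 at 3.06 ± 0.51. The muscle genes MYH7 and ACTC1 were at 7.32 ± 0.37 and 7.22 ± 0.41 and MYL1 at 3.24 ± 0.68. The gut genes APOA4, CDX1 and FABP2 were at 4.23 ± 0.46, 3.11 ± 0.24 and 2.80 ± 0.64, fibrinogen FGB at 2.84 ± 0.38 and growth hormone GH1 at 3.94 ± 0.67. Spots disagreed within an array for GKN1, MYL1, CDX1 and FABP2, with SDs of 1.52, 1.02, 1.24 and 1.36 between spots. For CELA2A, FGB and GH1 this SD was 0.80, 0.72 and 0.70. Probe sequences were not used here, so cross-hybridisation to related transcripts was not tested.

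Regulators of regional identity were dim. Of 16 homeobox cluster genes, 11 were detected in all cows, the brightest being HOXC5 (7.59 ± 0.29) and HOXC4 (6.69 ± 0.47) and the dimmest HOXD4 (2.89 ± 0.05), and HOXA10, HOXC12 and HOXC13 were detected in none. The spots of the HOXD4 probe disagreed within an array, with an SD of 0.91 between spots, far above its SD over cows. Of 8 transcription factors of gut and liver, FOXA3 (5.51 ± 0.34) and GATA5 (4.65 ± 0.42) led, CDX1 was the dimmest detected in all cows, HNF4A and PDX1 were detected in 3 cows, and NKX2-1 in none.

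Antimicrobial and acute-phase genes covered the full range of signal and varied widely between cows. Of 15, 13 were detected in all cows and 4 were in the brightest 10%, and their median SD was 0.51, against 0.20 over all genes. The suprabasal and cornified list had a median SD of 0.53 and the erythroid list 0.56, so this spread was not particular to them. S100A12 and S100A8 (17.58 ± 0.22), which encode calgranulins, were the brightest, and the cathelicidin CATHL4 was the dimmest detected in all cows at 3.59 ± 0.14. S100A9, the partner of S100A8 in calprotectin, read 13.91, 14.41, 12.77 and 15.45 in cows 1 to 4. The beta-defensin LAP read 13.77, 14.13, 12.18 and 13.46, cow 3 again being the lowest. Haptoglobin (HP) was detected in no cow.

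Of 26 cytokine and chemokine genes, 16 were detected in all cows and 5 in none. The brightest was IL1RN, the antagonist of the interleukin 1 receptor, at 14.29 ± 0.21, followed by IL18 at 9.83 ± 0.06, and the dimmest detected in all cows was TNF at 2.57 ± 0.46. The spots of the TNF probe disagreed within an array, with an SD of 0.96 between spots. The agonists IL1A and IL1B were at 9.69 ± 0.41 and 4.54 ± 0.39. IL2, IL22, IL12A, CSF3 and CCL20 were detected in no cow. Of 9 genes of MHC class II presentation, BOLA-DRA (12.20 ± 0.25) and the protease CTSH (11.57 ± 0.04) led, BOLA-DYB was the dimmest detected in all cows at 4.37 ± 0.24, and BOLA-DQA5, BOLA-DQB and BOLA-DYA, genes of a polymorphic family, were detected in none. The interferon-stimulated list was led by IRF9 at 9.89 ± 0.31 and ISG15 at 8.93 ± 1.60, with MX2 at 5.32 ± 0.14 the dimmest detected in all cows.

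All 14 immediate early genes, which respond within minutes to stress or growth signals, were detected in all cows, with FOSB at 14.04 ± 0.60, IER2 at 12.43 ± 0.10 and CCN1, the dimmest, at 7.92 ± 0.55. All 14 genes of the cell cycle were detected, with the replication helicase subunits MCM5 (12.11 ± 0.30) and MCM4 (11.28 ± 0.36) the brightest and BUB1B the dimmest (4.30 ± 0.66), as were all 14 of cholesterol synthesis, from PMVK (13.79 ± 0.10) and MSMO1 (13.40 ± 0.21) to CYP51A1 (9.44 ± 0.31). Among 22 genes of redox and xenobiotic defence, 20 were detected in all cows and 8 were in the brightest 10%, from the peroxiredoxins PRDX1 (15.94 ± 0.17) and PRDX6 (15.88 ± 0.66) to ALDH3A1 (5.77 ± 0.52). The 6 clock genes ran from DBP (12.17 ± 0.23) and BHLHE40 (11.18 ± 0.15) to HLF (3.1 ± 0.37).

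The cows differed little for most genes. Over the 6734 genes detected in all 4 cows, the SD across cows had a median of 0.19 and a 90th percentile of 0.45, and 51 genes (0.757%) had an SD of at least 1. The SD between the 2 spots of a probe within an array had a median of 0.09, and for 3408 genes (50.6%) the SD across cows was over 2 times that between spots, while for 1317 (19.6%) it was smaller. The median SD fell from 0.30 in the dimmest quintile of these genes to 0.15 in the brightest quintile.

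**Figure D3:**
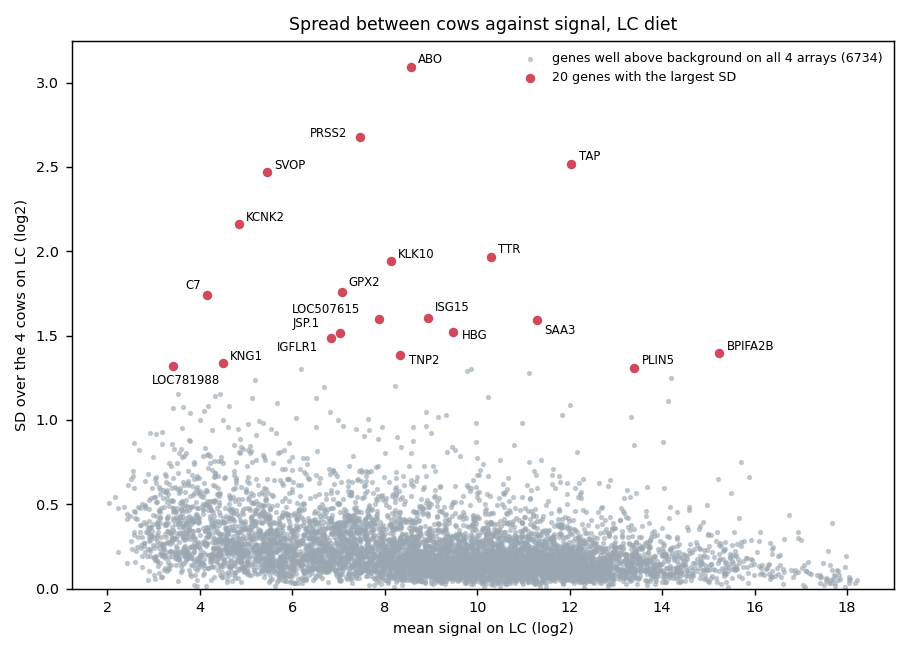
SD over the 4 cows on LC (log2, vertical axis) against the mean signal on LC (log2), 1 point per gene detected in all 4 cows, with the 20 genes of the largest SD in red. Most genes lie below 0.5, and ABO stands highest at 3.09.

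The 20 genes with the largest SD fall into a few kinds, and this order is a description that carries no test. The largest SD was that of ABO, the glycosyltransferase gene of the ABO blood group system, with 10.07, 3.93, 10.03 and 10.25 in cows 1 to 4, so that cow 2 was 6.10 below the nearest cow. PRSS2, a trypsinogen, read 9.43, 8.49, 8.46 and 3.51, cow 4 being the low one. SVOP, a transporter-like protein of synaptic vesicles, read 4.38, 9.14, 3.97 and 4.30, cow 2 being the high one. In each of these genes a single cow stood apart and the other 3 lay within 1 log2 unit.

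The HC arrays gave the same cow in each case. ABO read 10.64, 3.74, 10.40 and 10.03 on HC, PRSS2 9.63, 8.51, 8.48 and 3.80, and SVOP 3.97, 9.32, 3.86 and 4.11. Of the same form were IGFLR1, a receptor of the insulin growth factor-like family, with 6.28, 6.13, 9.06 and 5.91 on LC, and PLIN5, which coats lipid droplets, with 11.44, 13.86, 14.14 and 14.14. On HC the cow 3 value of IGFLR1 was 9.23 and the cow 1 value of PLIN5 was 11.83, again apart from the other cows.

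Host defence genes were among the most variable. TAP, the tracheal antimicrobial peptide, a beta-defensin, read 10.65, 15.16, 9.46 and 12.86 on LC in cows 1 to 4 and 13.42, 14.63, 9.15 and 10.83 on HC. SAA3, an epithelial serum amyloid A, read 12.60, 11.20, 9.07 and 12.27 on LC, and cow 3 was the lowest on HC too, at 8.86. BPIFA2B, a secreted protein of the BPI fold family, read 15.77, 16.83, 13.56 and 14.78. Cow 3 was the lowest in all 3 genes on both diets. ISG15, an interferon-induced ubiquitin-like protein, read 8.0, 10.25, 7.15 and 10.32 on LC, and on HC cow 4 reached 13.57 while the others lay between 7.72 and 8.75.

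KLK10, a kallikrein-related protease, read 9.14, 8.47, 5.31 and 9.61 and GPX2, a glutathione peroxidase of epithelia, 8.36, 7.78, 4.47 and 7.66, with cow 3 alone low in both. On HC cow 3 was again the lowest, at 6.02 and 4.65. TTR, the thyroxine carrier transthyretin, read 11.57, 12.09, 7.75 and 9.79, HBG 10.89, 10.51, 8.94 and 7.58, and JSP.1, a class I MHC gene, 5.80, 6.05, 7.13 and 9.14. In these 3 genes cows 1 and 2 did not overlap cows 3 and 4. The pairs were separate in 10 of the 20 genes with the largest SD, these 3 included, so this does not set them apart. The share over all detected genes is not given here, so no result is read from this separation. TNP2, a sperm nuclear protein, read 8.70, 9.17, 9.20 and 6.29, with cow 4 low.

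The potassium channel KCNK2 read 3.21, 2.81, 6.26 and 7.12 and the complement component C7 3.27, 2.35, 4.61 and 6.37, cows 3 and 4 being higher in both. LOC507615 read 5.88, 8.30, 9.72 and 7.55. KNG1, kininogen, read 2.65, 5.11, 4.48 and 5.75, and LOC781988 2.29, 4.88, 4.21 and 2.32, but their spots disagreed within an array, with SDs of 0.80 and 1.70 between spots. The gene just outside the 20 was the beta-defensin DEFB4A, with an SD of 1.30 against 1.31 for PLIN5.

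**Figure D4:**
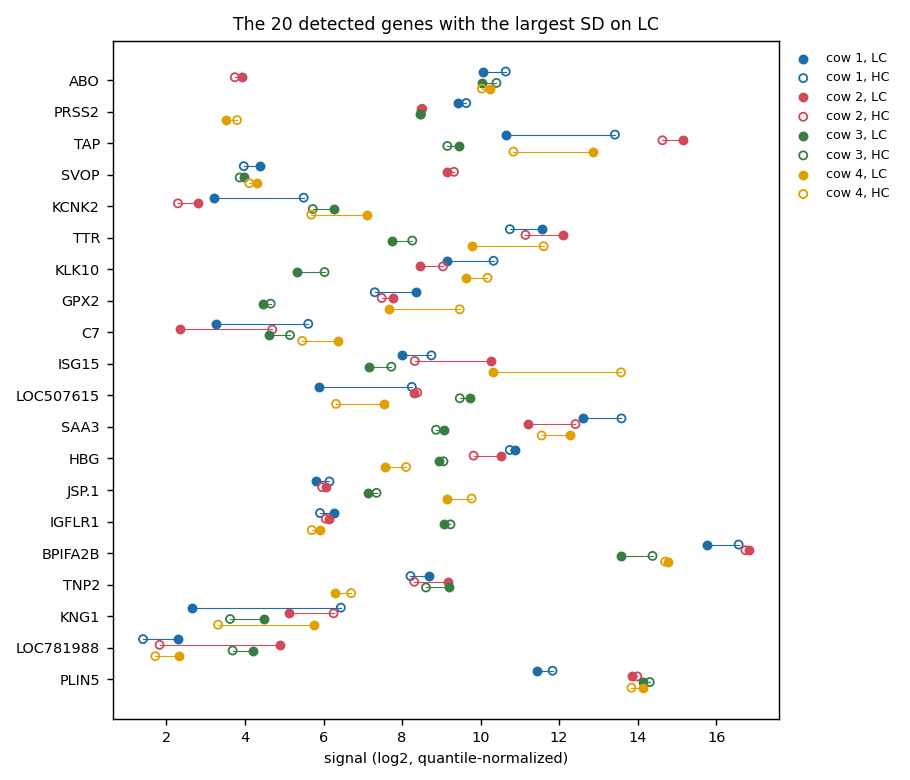
Signal (log2, horizontal axis) of the 20 genes with the largest SD on LC, with 1 colour per cow, filled points for LC and open points for HC, and a line joining the arrays of a cow. In ABO, PRSS2, SVOP, IGFLR1 and PLIN5 the cow that stood apart on LC stood apart on HC, whereas C7, KNG1 and KCNK2 changed order.

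The HC arrays, which played no part in choosing these genes, were used to see how often the order of the cows recurred. In 13 of the 20 genes the cow farthest from the LC mean was also the farthest from the HC mean, in the same direction. Over all 6734 detected genes this was so for 1588, or 23.6%, and it was so for 28 of the 50 and 147 of the 500 genes with the largest SD. The median SD on HC was 1.68 for the 20 genes and 0.18 for all detected genes. The arrays of a cow on both diets share the animal but neither the period nor the slide.

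At the level of probes, 130 of the 21475 had 1 cow at least 2 log2 units from the nearest other cow on LC, with the other 3 within 1 unit, and were detected on at least 1 array. In 95 of them the spots of the probe disagreed, with an SD of 0.5 or more between spots within an array. Of these 95, 81 were detected on 1 array alone, where the choice of probes leaves little room for a lower cow, so no direction is read from them. The same cow was again at least 2 units beyond all others on HC, in the same direction, for 3 of these 95. In the 35 probes with a smaller SD between spots this was so for 18. Of the 31 probes detected on all 4 LC arrays, 17 had a higher and 14 a lower cow, and it was so for 13 of the 24 with an SD between spots under 0.5 and for 0 of the other 7. Over all probes detected on at least 1 LC array, some cow stood that far beyond the others on HC for 0.419% of those with an SD between spots under 0.5 and for 1.45% of the rest. The limit of 0.5 was chosen after the values were seen.

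**Figure D5:**
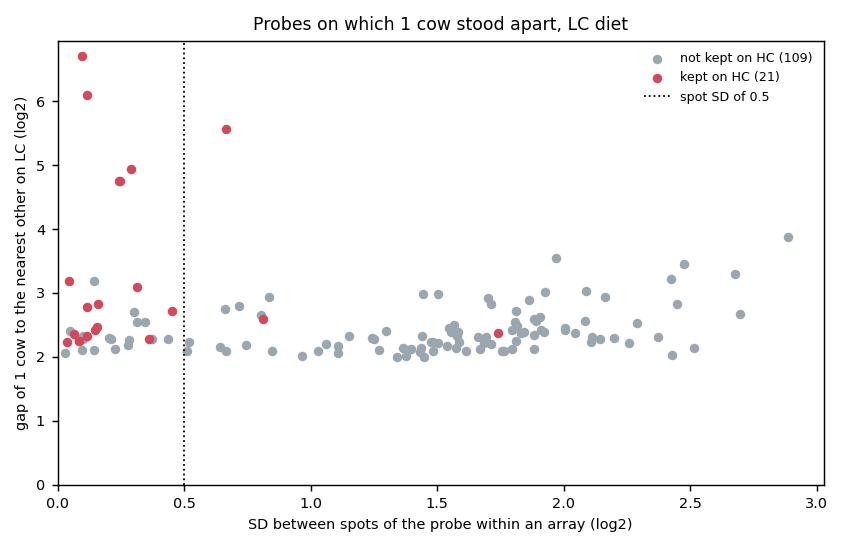
Gap on LC between the cow that stood apart and the nearest other cow (log2, vertical axis) against the SD between the spots of the probe within an array (log2), for 130 probes. Of the 21 probes kept on HC (red), 18 lie left of the dotted line at 0.5, and most of the others lie to its right.

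Differences between cows were tested over all 8 arrays with limma, with diet and period as further terms. With Benjamini-Hochberg adjustment, 34 of 21475 probes (0.158%) had an adjusted p under 0.05, and 3504 (16.3%) an unadjusted p under 0.05. This fit had 2 residual degrees of freedom. Without any 1 LC array it has fewer, and that cow keeps 1 array, so such a fit cannot show whether the count depends on a single array. Of the 34 probes, 22 were detected on all 4 LC arrays and 13 had a gene name. ABO (adjusted p = 0.0329), PRSS2 (0.0173), SVOP (0.0284), KLK10 (0.0353), SAA3 (0.0353), IGFLR1 (0.037) and JSP.1 (0.048) are among the 20 genes above, whose LC values enter this limma test, so their number is not a separate result. After normexp background correction the adjusted p in limma was 0.0587 for ABO, 0.0827 for KLK10 and 0.0653 for JSP.1, without period as a term it was 0.151 for SAA3, and in the deposited table it was 0.472 for SVOP and 0.0563 for JSP.1.

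The other 6 named probes were seen after the test. DEFB4A read 11.37, 8.85, 10.56 and 8.71 on LC and 11.79, 9.05, 10.57 and 8.69 on HC, so that cows 1 and 3 were the higher pair on both diets. PRSS37 was at 6.42 in cow 3 and at most 2.85 in the other cows. SCNN1B, a subunit of the epithelial sodium channel, was at 3.69, 2.08, 0.34 and 3.73 on LC and was detected in 2 cows. PTGDR, a prostaglandin receptor, was detected in cow 4 alone, at 3.75, and SOX30 and ELSPBP1 in cow 1 alone, at 2.86 and 2.55. The probe with the smallest p, which has no gene name here, read 12.50, 12.66, 13.14 and 5.79 on LC and 12.42, 12.48, 13.30 and 6.29 on HC, with cow 4 low on both diets.

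The pair of cows sampled in period 1 was compared with the pair sampled in period 2. With an unadjusted p under 0.05 and a fold of 1.5 or more, 1879 of 21475 probes (8.75%) were called by limma, 823 higher in cows 3 and 4 and 1056 lower. With arrays scaled to their 75th percentile in place of quantile normalization, 436 were higher and 1711 lower. None had an adjusted p under 0.05 by limma, the smallest being 0.236, while 2852 had an unadjusted p under 0.05. The count fell to 262 with another background correction, 71 higher and 191 lower. It rose to 2868 without the LC array of cow 4, and the balance then turned slightly, with 1446 higher and 1422 lower. Of the 1300 called probes that were detected on all 4 LC arrays, 558 (42.9%) kept the sign of the difference between these cows on HC, where the periods were reversed, against 51.1% of all 17069 probes so detected.

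Among called probes detected in all 4 cows, KCNK2 was 3.68 ± 0.35 (SE) higher in cows 3 and 4 on LC and 1.81 higher on HC, C7 was 2.67 ± 0.70 higher on LC and 0.15 higher on HC, and JSP.1 was 2.21 ± 0.71 higher on LC and 2.50 higher on HC. An unnamed probe read 5.05 and 4.98 in cows 1 and 2 and 7.87 and 8.16 in cows 3 and 4, and its difference of 3.00 ± 0.16 on LC was 3.25 on HC. For TTR the difference of cows 3 and 4 from cows 1 and 2 was -3.06 ± 0.74 on LC and -1.01 on HC, and for HBG it was -2.44 ± 0.51 and -1.70. The other unnamed probes with the largest differences were 1 higher by 1.99 ± 0.26 and 3 lower, at -3.21 ± 1.05, -2.52 ± 0.31 and -2.39 ± 0.24, and on HC their differences were 0.14, 1.17, -0.03 and 1.20, in that order. The adjusted p of these 10 probes in limma was between 0.236 and 0.35. KCNK2, HBG and the unnamed probe with the difference of 3.00 kept their call in every setting tried, and the other 7 lost it in at least 1. The unnamed probe with the difference of -3.21 lost it in 4 settings, and C7 and JSP.1 in 3 settings each.

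The lists were also compared between cows by the average distance of their detected genes from the mean of the 4 cows, and the lists given here were picked with these values known. In the antimicrobial and acute-phase list this distance was 0.06, 0.32, -0.61 and 0.23 in cows 1 to 4 on LC, and 0.74, 0.26, -0.69 and -0.32 on HC, relative to the mean of that diet. In the suprabasal and cornified list it was 0.20, -0.09, -0.51 and 0.40 on LC and 0.11, -0.01, -0.43 and 0.34 on HC. Cow 3 was the lowest in both lists on both diets. This was not particular to them. Cow 3 was also the lowest in the cell cycle list, at -0.38 on LC and -0.20 on HC. The same held for the macrophage list, at -0.31 and -0.28. In the basal keratinocyte list it was instead the highest on both diets, at 0.28 and 0.19. The interferon-stimulated list lay at -0.21, 0.42, -0.47 and 0.26 on LC and at -0.46, -0.61, -0.76 and 1.83 on HC, where cow 4 was the farthest from the others. In the erythroid and pancreas lists, of 5 and 6 detected genes, cow 4 was the lowest on both diets, at -0.66 and -0.62 on LC and at -0.37 and -0.80 on HC. The pancreas value rests largely on PRSS2, which read 3.51 in cow 4 on LC and 8.46 to 9.43 in the others. On LC cow 4 was also the lowest in AMY2B, but the highest in CELA1 and SST. Over all genes detected, the distance on LC was between -0.02 and 0.01. TGM3, a transglutaminase of the cornified layer, read 15.97, 16.15, 14.58 and 16.11 on LC, with cow 3 the lowest, and 14.74 in cow 3 on HC. Of the suprabasal genes with an SD of at least 1, DSG1, a desmoglein of upper layers, read 12.21, 10.03, 10.01 and 12.26, and CSTA, cystatin A, 7.21, 6.90, 7.31 and 9.12, with cow 4 the highest in both. The LC array of cow 3 also had the lowest median intensity of the 4, at 92.0 against 109 to 132. The HC array of cow 3 was at 115, against 101 to 123 in the other cows. Whether array intensity has a part in the lower list values of cow 3 was not tested.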

How the data were processed

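RNA of rumen papillae was measured on 8 arrays, and the 4 of the LC diet are described. For each array the authors deposited the scanner output of Agilent Feature Extraction, whose intensity per spot is background-subtracted and not normalized between arrays. Quantile-normalized log2 values, which the authors deposited as a second file, served as an alternative. Of 44407 spots per array, 42990 are not controls, giving 21475 probes, 21465 with 2 spots. The signal over background and the number of arrays limit the precision, and no spot was saturated.

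Control and outlier spots were left out, log2 intensities were quantile-normalized over the 8 arrays (R 4.3.3, limma 3.58.1), and spots of a probe were averaged. Probes were named through RefSeq accessions (10176 probes with one, 8297 matched to symbols of ARS-UCD2.0). Summaries used Python 3.11.15 with pandas 2.3.3, and figures matplotlib 3.10.9. The limma tests, checked on simulated data, compared cows 1 and 2 with cows 3 and 4 on LC (2 residual degrees of freedom) and the cows over 8 arrays with diet and period as covariates, with Benjamini-Hochberg adjustment over all probes. The p-values rest on 1 array per cow and diet, so animal and technical spread are not separated.

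The genes named are the 20 brightest, the 20 with the largest SD among those detected on all 4 arrays, the 5 probes per direction with the largest called pair difference, GAPDH and ACTB, and the brightest, second and dimmest detected members of each gene list, with other-tissue genes and regulators by their detection. Any other gene was named with its values known. Some genes that this rule names are not reported here. The genes, lists and tests were chosen with earlier results of these data known. The alternatives were another scaling, normalization over LC alone, normexp with an offset of 50 on the median signal (no mean signal was in the files used here), the deposited table, other rules for probes and detection, and leaving out each LC array.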

Additional observations from a re-analysis of the deposited data

Results flagged for a closer look

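In groups of 4 arrays, a value was marked when its gap to the nearest other as a share of the whole range was past Dixon's critical value for 4 values. Among 146 named genes, 11 (7.53%) were marked on LC, and chance marks about 1 in 20. Of the 11, 5 are among the 20 genes chosen for the largest SD on these same arrays. The share of 11 in 146 is therefore not comparable with that rate. The other 126 genes gave 6, which is near 1 in 20. In the 11 marked genes the share of the range was 0.965 for ABO (cow 2 low), 0.924 for KRT6A (cow 3 low), 0.921 for SVOP (cow 2 high), 0.903 for MYLK (cow 4 low) and 0.898 for PRDX6 (cow 1 low). It was 0.895 for PLIN5 (cow 1 low), 0.883 for IGFLR1 (cow 3 high), 0.864 for HLF (cow 3 low), 0.852 for FOSB (cow 3 high), 0.843 for RPS12 (cow 1 low) and 0.836 for PRSS2 (cow 4 low).

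The gaps differed in size, from 0.19 on the log2 scale for RPS12 and 0.40 for MYLK to 6.10 for ABO. FOSB, an immediate early gene, read 13.86, 13.68, 14.93 and 13.70 on LC, and cow 3 was the highest on HC too, at 14.78. PRDX6, a peroxiredoxin, read 14.89, 16.14, 16.28 and 16.22 on LC. Cow 1 was the lowest on HC, at 15.65, but the next cow was close, at 15.865. HLF, a clock output gene, read 3.34, 3.28, 2.55 and 3.23, and cow 3 was the lowest on HC, at 2.26. In KRT6A and RPS12 the cow marked on LC was the lowest on HC too, at 17.42 and 17.72. MYLK read 12.21, 12.56, 12.40 and 12.30 on HC, where cow 1 and not cow 4 was the lowest.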

How the results depend on the processing

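No paired analysis was possible because the groups compared within LC, cows 1 and 2 against cows 3 and 4, share no animal, and the diets, which share all 4, were not compared here. Of the 50 brightest genes, 48 to 50 were shared with the 50 brightest under each alternative and without each LC array in turn. Of the 50 detected genes with the largest SD, 44 to 50 were shared under the alternatives, except for 30 after normexp background correction, and 34 to 38 without 1 LC array. The number of genes detected in no cow, 612, was 860 when all spots of a probe had to be marked, and 636 to 713 without 1 LC array, and for probes 2661 became 3667 and 2757 to 3022. Of the genes on the lists, 379 were detected in all cows and 18 of other organs in none, and these were 362 and 23 when all spots had to be marked. The 133 list genes in the brightest 10% were 134 with the median over a gene's probes. The 1879 probes called between the pairs of cows became 262 after normexp, 1572 in the deposited table and 1612 to 2868 without 1 LC array. The 34 probes of the cow test became 20 after normexp, 15 in the deposited table, 43 without period as a term, 233 when only probes detected on all 8 arrays were tested, and 0 without any 1 of the LC arrays, each of which left 2484 to 3866 probes at an unadjusted p under 0.05 in limma. Of the called pair differences, 43.8% were higher in cows 3 and 4, against 20.3% with 75th percentile scaling, 27.1% after normexp and 50.4% without the LC array of cow 4. The 10 named pair differences kept their sign in each setting. The causes were not tested. The depth limits the dimmest genes, whose lowest detected signal was 1.90 to 2.63 per LC array.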
